A study of Mus musculus with 18 samples.

Results

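Krt7, Krt19, Epcam, Sox9, Cldn4, Prom1 and Muc1, 7 genes used as markers of cholangiocytes and of the ductular reaction, were followed in the livers of a mouse model of lysosomal acid lipase deficiency and its gene therapy. They were taken as a set by their gene names, and the set was chosen with earlier results of these data known. They are 7 of the 35441 genes of the deposited table. All 7 passed the filter on low counts (more than 100 reads summed over all livers), as did 14533 genes in all. Sequencing of poly(A) RNA covered a piece of frozen liver from each of 18 male mice, 3 to a group. WT mice, Lipa−/− mice and rAAV8-treated Lipa−/− mice were compared at 12-weeks and at 34-weeks post-injection, which the labels call 3 and 8 months. Lipa−/− mice on the C57/BL6N background carried a germline deletion of Lipa exon 4 made with a CMV-driven Cre, so that every cell lacked the exon. The treated mice had received rAAV8.hAAT.LIPA into the tail vein at 10 to 12 weeks of age. The hAAT promoter of the vector is active in hepatocytes, so cholangiocytes are not the cells in which the human gene was meant to be expressed. The study's approach relies on hepatocytes that release the enzyme into the blood, to correct other tissues as well. Whether cholangiocytes took up the enzyme was not measured here. By the study's methods most untreated Lipa−/− mice followed to 34-weeks were killed earlier at predefined endpoints, so livers of the untreated group labelled 34-weeks may have been taken before that time.

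Cholangiocytes are the epithelial cells that line the bile ducts. They carry the simple-epithelium keratins 7 and 19, the adhesion molecule EpCAM and tight-junction claudins, and hepatocytes of the healthy adult liver have little of any of these. In many chronic liver injuries ductules increase in number around the portal tracts, the ductular reaction, and SOX9, the transcription factor of the biliary lineage, and prominin 1 (CD133) are also seen in hepatocytes or progenitor-like cells of intermediate character.

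The 7 genes lie on 5 chromosomes (GRCm39, GENCODE vM39). Krt7 (ENSMUSG00000023039.18) spans chr15:101308924-101328194 on the plus strand and has 9 exons in its canonical transcript. Krt19 (ENSMUSG00000020911.16) spans chr11:100031636-100039491 on the minus strand with 6 exons, and Sox9 (ENSMUSG00000000567.7) lies on the same chromosome at chr11:112673009-112678586 on the plus strand with 3 exons. Epcam (ENSMUSG00000045394.11) spans chr17:87943407-87958557 on the plus strand with 9 exons. Cldn4 (ENSMUSG00000047501.4), at chr5:134973973-134975788 on the minus strand, consists of 1 exon. Prom1 (ENSMUSG00000029086.17) is the longest of the set, at chr5:44150962-44259395 on the minus strand with 28 exons, and Muc1 (ENSMUSG00000042784.11) spans chr3:89136354-89140688 on the plus strand with 7 exons.

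Promoters are shown as a description of the DNA before the starts of these genes. Whether these bases have a part in the rise of the markers in Lipa−/− livers was not tested. The RefSeq promoter table (GRCm38.p6) held 5 of the 7 genes with 6 starts, Prom1 having 2, and Krt19 and Sox9 were not in it. Each window is the 250 bases before the start, printed in the direction of the gene, and each matched GRCm39 exactly at 1 place on its chromosome. Capitals mark matches, on either strand, to AP-1 (TGANTCA), TEAD (GGAATG), RBPJ (TGGGAA), SOX (ACAATG), SP1 (GGGCGG), grainyhead-like (AACCNGTT) motifs and to the core promoter box (TATAAA). The windows of Cldn4 (chr5:134975789-134976038, minus strand), Epcam (chr17:87943157-87943406, plus strand), the inner start of Prom1 (chr5:44252111-44252360, minus strand) and Muc1 (chr3:89136113-89136362, plus strand, its last 9 bases within an annotated exon) are as follows.
Cldn4: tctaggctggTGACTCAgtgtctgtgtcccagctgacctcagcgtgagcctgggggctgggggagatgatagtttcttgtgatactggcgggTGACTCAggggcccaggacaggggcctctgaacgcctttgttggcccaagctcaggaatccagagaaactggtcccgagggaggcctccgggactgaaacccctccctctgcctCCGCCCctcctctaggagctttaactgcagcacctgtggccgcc
Epcam: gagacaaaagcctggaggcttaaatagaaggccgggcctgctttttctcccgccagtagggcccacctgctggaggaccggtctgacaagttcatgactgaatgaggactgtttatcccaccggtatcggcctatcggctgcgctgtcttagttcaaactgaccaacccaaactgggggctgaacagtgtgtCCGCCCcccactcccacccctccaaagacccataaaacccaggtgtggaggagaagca
Prom1: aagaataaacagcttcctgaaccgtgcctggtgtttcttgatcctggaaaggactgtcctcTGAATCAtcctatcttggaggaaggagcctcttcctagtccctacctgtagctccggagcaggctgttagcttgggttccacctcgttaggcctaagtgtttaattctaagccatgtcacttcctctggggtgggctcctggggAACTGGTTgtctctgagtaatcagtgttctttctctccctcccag
Muc1: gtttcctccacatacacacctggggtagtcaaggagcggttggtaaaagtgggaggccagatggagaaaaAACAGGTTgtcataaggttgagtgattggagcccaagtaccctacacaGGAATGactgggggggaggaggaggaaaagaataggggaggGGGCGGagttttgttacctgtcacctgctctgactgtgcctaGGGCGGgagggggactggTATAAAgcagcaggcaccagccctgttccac

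The Cldn4 window held the AP-1 letters at 2 places, 240 to 234 and 158 to 152 bases before the start. The Epcam window held a single SP1 match. In the Muc1 window a match to the core promoter box lay 31 to 26 bases before the start, with SP1, TEAD and grainyhead-like matches farther out. The window of the outer Prom1 start lies wholly (250 bases) and that of Krt7 with 162 bases within annotated exons, and both are counted here without being printed. Over the 6 windows, AP-1 letters as searched were found in 3, from Cldn4 and both starts of Prom1, where 6.75% of all 32851 promoter windows of the same length hold them. The searched pattern allows any base in its middle. Cldn4 and the outer Prom1 start held TGACTCA, and the inner Prom1 start held TGAATCA. The narrower letters TGACTCA were not counted over all windows. Grainyhead-like letters were found in 3, from Muc1 and both starts of Prom1, against 1.79% of all windows, and SP1 letters in 5 against 32.7%. TEAD, RBPJ and core promoter box letters were each found in 1 window, against 12.6%, 21.6% and 12.4%, and SOX letters in 0, against 10.7%. The windows of Krt7 and of both Prom1 starts lie within the span of their gene, and use of these starts in the livers was not measured. A match is a stretch of letters and not a measured binding site, and 6 windows from 5 genes are a description only. GC content of the windows ranged from 50.8% to 66%.

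Libraries held 17527848 to 25833134 estimated reads. Mouse Lipa, the deleted gene, stood at 202 to 323 TMM-scaled CPM in the 6 WT livers and at 16.7 to 37.0 in the 12 Lipa−/− livers, treated or not, and the human LIPA sequence stood at 523 to 2746 in the treated livers, at 0 in the untreated Lipa−/− livers and at 0 to 0.906 in WT livers. CPM is the reads of a gene as a share of all reads of its library, scaled by TMM factors for composition, which ranged from 0.587 in a treated liver at 12-weeks to 1.69 in a Lipa−/− liver at 34-weeks, and 1 read is worth 0.0315 to 0.0972 CPM depending on the liver. A gene was called changed when its log2 fold change exceeded 1 in size and its adjusted p was under 0.05 in edgeR's quasi-likelihood test with Benjamini-Hochberg adjustment over all 14533 genes. In RNA of a piece of liver with all its cells, more cholangiocytes and more RNA per cell cannot be told apart.

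Per length, all 7 were rare transcripts in WT liver. On the deposited TPM scale Sox9 was the highest in WT livers at 12-weeks with 1.99 ± 0.533 (SD, n = 3), followed by Krt19 with 1.17 ± 0.780, Epcam with 0.848 ± 0.334, Prom1 with 0.805 ± 0.284 and Muc1 with 0.762 ± 0.993. These last 4 neighbours lay within each other's spread. Krt7 with 0.127 ± 0.0347 and Cldn4 with 0.0504 ± 0.0686 were lowest. Among all genes tested the mean WT TPM stood at the 37th percentile for Sox9, between the 23.4th and 27.4th for Krt19, Epcam, Prom1 and Muc1, at the 10.6th for Krt7 and at the 2.7th for Cldn4. In Lipa−/− livers at 34-weeks Sox9 (14.0 ± 5.88), Epcam (10.9 ± 4.70) and Prom1 (10.0 ± 1.54) stood together at the top within their spread, and Krt7 (1.71 ± 0.940) and Cldn4 (2.75 ± 1.28) stayed at the bottom. The summed TPM of the 7 genes ran from 3.33 to 7.45 in WT livers at 12-weeks, from 18.8 to 23.5 in Lipa−/− livers and from 2.24 to 3.89 in treated livers. At 34-weeks the same sum ran from 2.9 to 7.37, from 44.0 to 56.4 and from 4.68 to 8.63. The untreated Lipa−/− livers were thus apart from the other groups of their time on this sum, and treated and WT livers overlapped at both times.

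Whether loss of Lipa was accompanied by a rise of biliary markers was asked at each time. At 12-weeks 4 of the 7 genes rose in Lipa−/− livers against WT livers (Epcam, Sox9, Cldn4 and Prom1) and 0 fell, where 20.2% of all genes tested were called higher. At 34-weeks 6 of the 7 rose, all but Muc1, where 20.5% of all genes tested were called higher. The median log2 fold change of the 7 was 1.64 at 12-weeks and 2.50 at 34-weeks, beside 0.02 and -0.03 over all genes tested.

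**Figure D1:**
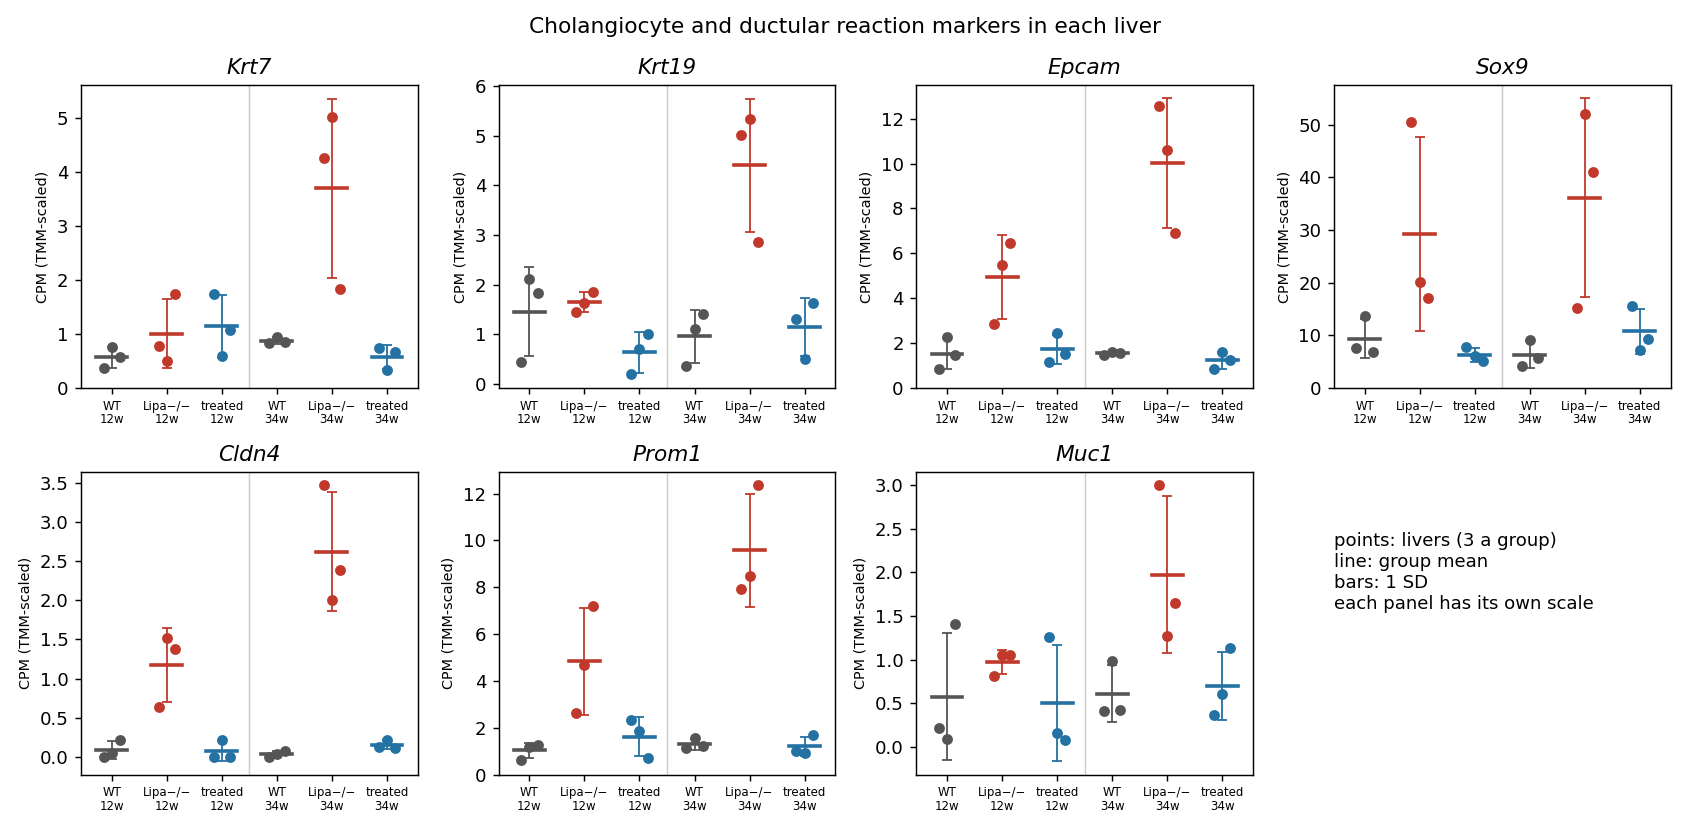
TMM-scaled CPM of the 7 markers in each of the 18 livers, by group and time, with points for livers, lines for group means and bars of 1 SD over 3 livers, and a separate linear scale in each panel. The 3 Lipa−/− livers at 34-weeks lie above all WT livers of that time in every panel, and the treated livers lie among or near the WT livers. Of all genes tested, 30.5% had every Lipa−/− liver above every WT liver at 34-weeks.

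Neither keratin passed at 12-weeks and both passed at 34-weeks. Krt7 encodes keratin 7, an intermediate filament protein of duct epithelia. At 12-weeks it stood at 0.375, 0.766 and 0.576 CPM in WT livers, at 0.505, 1.74 and 0.781 in Lipa−/− livers and at 1.75, 0.598 and 1.07 in treated livers. The 3 groups overlapped, and the log2 fold change of Lipa−/− over WT was 0.80 (SE 0.54, edgeR adjusted p = 0.259). At 34-weeks Krt7 stood at 0.826, 0.946 and 0.856 CPM in WT livers, at 4.26, 5.02 and 1.84 in Lipa−/− livers and at 0.328, 0.661 and 0.732 in treated livers. All 3 Lipa−/− livers were above the other 6, Lipa−/− mouse 6 least so. The rise over WT had a log2 fold change of 2.07 (SE 0.52, edgeR adjusted p = 0.00342), which is 4.20-fold.

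Krt19 encodes keratin 19, the keratin most used to outline bile ducts on sections. At 12-weeks the WT livers held 0.429, 2.11 and 1.83 CPM, the Lipa−/− livers 1.63, 1.86 and 1.45 and the treated livers 0.194, 0.706 and 0.997. The Lipa−/− livers lay inside the range of the WT livers, of which mouse 1 was low, and the log2 fold change was 0.17 (SE 0.58, edgeR adjusted p = 0.839, 95% interval -1.05 to 1.40). At 34-weeks the WT livers held 0.354, 1.10 and 1.40 CPM, the Lipa−/− livers 5.01, 5.33 and 2.87 and the treated livers 0.492, 1.63 and 1.30. The Lipa−/− livers no longer overlapped with the others, and the rise had a log2 fold change of 2.17 (SE 0.59, edgeR adjusted p = 0.00611), a 4.51-fold difference.

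Epcam encodes the epithelial cell adhesion molecule, found on cholangiocytes and absent from most mature hepatocytes. At 12-weeks it stood at 0.857, 2.25 and 1.47 CPM in WT livers, at 5.48, 6.47 and 2.84 in Lipa−/− livers and at 1.17, 2.45 and 1.53 in treated livers. Every Lipa−/− liver was above every WT and treated liver, and the log2 fold change over WT was 1.68 (SE 0.40, edgeR adjusted p = 0.00291). At 34-weeks the WT livers, at 1.47, 1.62 and 1.56 CPM, were close to each other, the Lipa−/− livers held 12.6, 10.6 and 6.91 and the treated livers 1.58, 1.25 and 0.854. The difference between Lipa−/− and WT was 6.45-fold, a log2 fold change of 2.69 (SE 0.40, edgeR adjusted p = 4.18e-05).

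Sox9, the transcription factor that marks the biliary lineage and injured periportal hepatocytes, had the highest mean TPM of the set in 5 of the 6 groups and varied widely among Lipa−/− livers. At 12-weeks it stood at 7.66, 13.6 and 6.81 CPM in WT livers, at 20.1, 17.1 and 50.5 in Lipa−/− livers and at 7.77, 6.03 and 5.06 in treated livers. The high liver was Lipa−/− mouse 5, the only one of the 18 whose label carried a study code of its own, and the same liver was the lowest of its group for 5 of the other members. The log2 fold change over WT was 1.64 (SE 0.48, edgeR adjusted p = 0.0122). Without mouse 5 it was 0.99 (edgeR adjusted p = 0.106), and the call was also lost without WT mouse 1 (1.52, adjusted p = 0.0515) or WT mouse 3 (1.46, adjusted p = 0.0536). At 34-weeks the WT livers held 4.19, 9.06 and 5.72 CPM, the Lipa−/− livers 15.2, 52.0 and 41.1 and the treated livers 7.27, 9.38 and 15.5. Lipa−/− mouse 4, the highest of its group for Epcam, Cldn4 and Muc1, was the lowest for Sox9 and lay just under treated mouse 9. Against WT the log2 fold change was 2.50 (SE 0.50, edgeR adjusted p = 0.000556).

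Cldn4, a tight-junction claudin of ductal and other simple epithelia, was nearly absent from WT livers and had the largest fold of the set. At 12-weeks 0, 1 and 4 reads were assigned to it in WT livers (0, 0.0479 and 0.209 CPM), against 39, 34 and 18 reads in Lipa−/− livers (1.51, 1.37 and 0.639 CPM) and 0, 4 and 0 in treated livers. At 34-weeks the reads were 0, 1 and 2 in WT livers, 110, 52 and 65 in Lipa−/− livers (3.47, 2.01 and 2.39 CPM) and 4, 3 and 3 in treated livers. Lipa−/− livers did not overlap with the other groups at either time. Over whole groups, 91 reads against 5 gave a ratio per effective library of 13.6 at 12-weeks (95% counting interval 5.61 to 42.8) and 227 against 3 gave 60.7 at 34-weeks (20.5 to 297), intervals that cover counting error only. The fitted log2 fold changes, which at such counts depend on the prior, were 3.70 (SE 0.83, edgeR adjusted p = 0.00209) and 5.75 (SE 0.89, edgeR adjusted p = 5.71e-05).

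Prom1 encodes prominin 1 (CD133), a membrane protein of apical protrusions that is used to sort biliary and progenitor cells. At 12-weeks WT livers held 0.643, 1.20 and 1.26 CPM, Lipa−/− livers 4.70, 7.19 and 2.63 and treated livers 2.33, 1.85 and 0.690. The Lipa−/− livers were above both other groups, and 2 of the treated livers were above all WT livers. The log2 fold change of Lipa−/− over WT was 2.22 (SE 0.44, edgeR adjusted p = 0.000788). At 34-weeks the values were 1.12, 1.58 and 1.21 CPM in WT livers, 7.95, 8.46 and 12.4 in Lipa−/− livers and 0.929, 1.67 and 1.02 in treated livers. With the highest liver being Lipa−/− mouse 6, which was the lowest for Krt7, Krt19 and Epcam, the log2 fold change was 2.87 (SE 0.44, edgeR adjusted p = 5.24e-05).

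Muc1, the membrane mucin of apical surfaces of ducts and glands, was the member with the fewest calls. At 12-weeks WT livers held 0.214, 0.0957 and 1.41 CPM, Lipa−/− livers 1.05, 1.05 and 0.816 and treated livers 1.26, 0.163 and 0.0767. The highest WT liver, mouse 3, was above all 3 Lipa−/− livers, and the log2 fold change was 0.76 (SE 0.84, edgeR adjusted p = 0.507). Without that liver it was 2.62 (edgeR adjusted p = 0.0436). At 34-weeks WT livers held 0.413, 0.985 and 0.428 CPM, Lipa−/− livers 3.00, 1.28 and 1.65 and treated livers 0.601, 1.13 and 0.366. Lipa−/− livers were above the others, and the log2 fold change of 1.68 (SE 0.82, 95% interval -0.05 to 3.41) had an edgeR adjusted p of 0.103. The mean length of the transcripts assigned to Muc1 was 572 to 831 bases in all 6 Lipa−/− livers and 508 to 2025 bases in the other 12. The log2 fold change at 34-weeks was 2.76 on the length-scaled log2(TPM + 0.1) values (limma adjusted p = 0.0201), which carry no TMM factors. It was 2.31 on counts without TMM factors (edgeR adjusted p = 0.0329). With transcript-length offsets Muc1 did not pass there in edgeR or in DESeq2, and why these fits differ was not tested.

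Whether the vector changed the markers was asked against untreated Lipa−/− livers of the same time. At 12-weeks 4 of the 7 were lower in treated livers, the same 4 genes that rose over WT, where 25.3% of all genes tested were called lower. At 34-weeks 6 of the 7 were lower, all but Muc1, where 18.6% of all genes tested were called lower. Both kinds of comparison share the untreated Lipa−/− livers, so the 2 sets of calls are not independent. At 12-weeks the log2 fold changes were -1.49 for Epcam (SE 0.40, edgeR adjusted p = 0.00521), -2.22 for Sox9 (SE 0.50, adjusted p = 0.00155) and -1.58 for Prom1 (SE 0.43, adjusted p = 0.00621). Cldn4 went from 91 to 4 reads, a ratio of 0.0829 (95% counting interval 0.0221 to 0.22). Krt19 did not pass, with every treated liver under every untreated one and a log2 fold change of -1.33 (SE 0.63, edgeR adjusted p = 0.0843). Muc1 (-1.07, adjusted p = 0.322, and -2.93 with adjusted p = 0.0301 without treated mouse 10) and Krt7 (0.15, adjusted p = 0.831) overlapped between the groups.

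**Figure D2:**
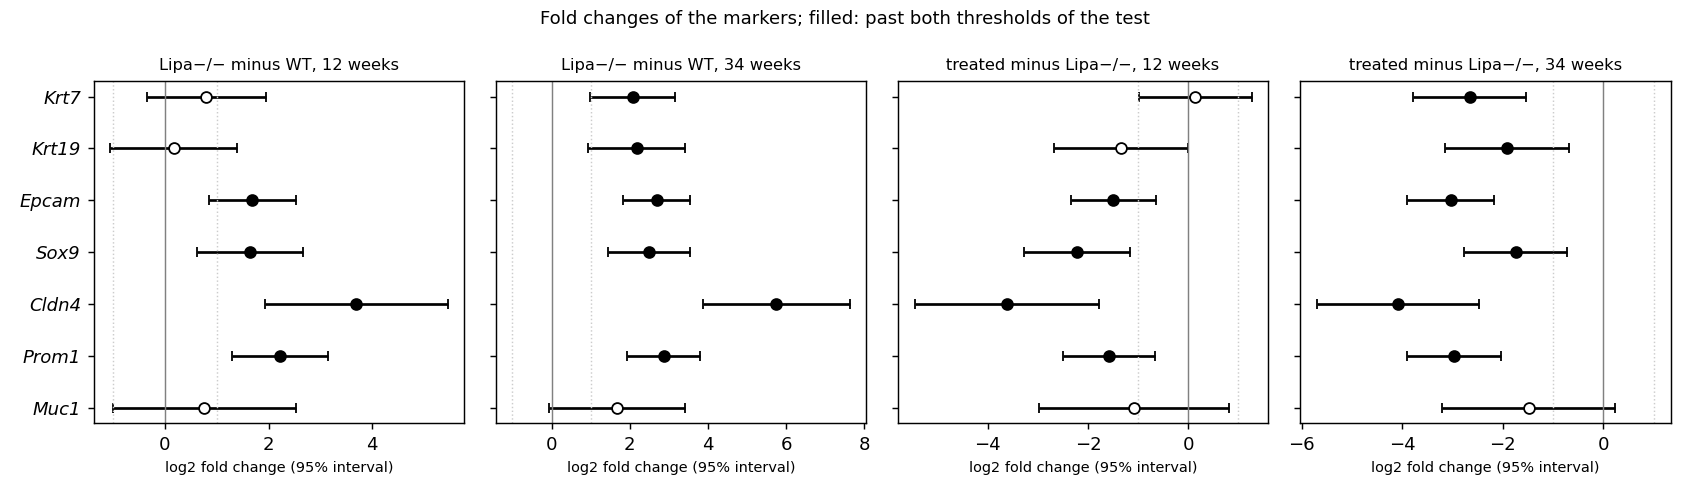
Fitted log2 fold changes of the 7 markers with 95% intervals (edgeR) for Lipa−/− minus WT and for treated minus untreated Lipa−/− livers at 12-weeks and 34-weeks, each on its own horizontal scale with dotted lines at a fold change of 1 on the log2 scale. Filled points passed both thresholds, 4 and 6 of 7 in the first pair of panels and 4 and 6 of 7 in the second.

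At 34-weeks the fitted log2 fold changes lay lower than at 12-weeks for 6 of the members and higher for Sox9. Krt7, 1 of the 6, had no decrease at 12-weeks. The difference between times was not tested for this pair of groups. Treated livers differed from untreated Lipa−/− livers by a log2 fold change of -3.03 for Epcam (SE 0.41, edgeR adjusted p = 2.25e-05), -2.98 for Prom1 (SE 0.44, adjusted p = 5.2e-05), -2.66 for Krt7 (SE 0.54, adjusted p = 0.000767) and -1.92 for Krt19 (SE 0.58, adjusted p = 0.0141). The Krt19 call was lost without treated mouse 11, the lowest of its group (-1.58, adjusted p = 0.0651). Sox9 fell by 1.75 on the log2 scale (SE 0.48, edgeR adjusted p = 0.00781), with treated mouse 9 and Lipa−/− mouse 4 overlapping. Cldn4 went from 227 to 10 reads, a ratio of 0.0544 (95% counting interval 0.0258 to 0.102). Muc1 was under all untreated livers in each treated liver, with a log2 fold change of -1.49 (SE 0.81, adjusted p = 0.156).

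Treated livers were also set against WT livers. Of the 7 members 0 passed at 12-weeks, where 25.5% of all genes tested were called in either direction, and 0 passed at 34-weeks, where 0.22% were called. At an unadjusted p under 0.05 the counts were likewise 0 and 0, where 48.2% and 5.76% of all genes were under it, and DESeq2 called 0 and 0. The intervals were wide. At 12-weeks the log2 fold change of treated over WT was 0.95 for Krt7 (95% interval -0.23 to 2.12), -1.16 for Krt19 (-2.51 to 0.19), 0.19 for Epcam (-0.68 to 1.06), -0.58 for Sox9 (-1.61 to 0.46), 0.64 for Prom1 (-0.33 to 1.61) and -0.31 for Muc1 (-2.28 to 1.65). At 34-weeks it was -0.59 for Krt7 (-1.73 to 0.55), 0.25 for Krt19 (-1.01 to 1.51), -0.35 for Epcam (-1.21 to 0.51), 0.76 for Sox9 (-0.26 to 1.77), -0.11 for Prom1 (-1.04 to 0.82) and 0.19 for Muc1 (-1.59 to 1.96). The intervals thus left out a doubling for Krt19 and Sox9 at 12-weeks and for Krt7, Epcam and Prom1 at 34-weeks, and they did not for the other members named. For those same members and times they did not leave out a decrease of 1 on the log2 scale. Cldn4 was at or near the floor of 3 counts in each of these livers, with 4 reads in treated and 5 in WT livers at 12-weeks (ratio 1.12, counting interval 0.223 to 5.22) and 10 against 3 at 34-weeks (ratio 3.3, 0.851 to 18.7).

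Between the times, untreated Lipa−/− livers were higher at 34-weeks for 6 of the 7 members with no overlap, where 11.4% of all genes tested showed the same separation, and Sox9 overlapped. With the adjustment over all genes 0 of the 7 passed, where 0.495% of genes were called, while 4 had an unadjusted p under 0.05, as did 15.6% of all genes. Krt7 had the largest difference, a log2 fold change of 1.88 (SE 0.51, edgeR adjusted p = 0.0842, and past the thresholds without Lipa−/− mouse 6 at 34-weeks or mouse 9 at 12-weeks), followed by Krt19 with 1.42 (SE 0.57, adjusted p = 0.236), Cldn4 with 1.16 (SE 0.63, adjusted p = 0.389), Epcam with 1.03 (SE 0.37, adjusted p = 0.188), Muc1 with 1.02 (SE 0.79, adjusted p = 0.549), Prom1 with 0.99 (SE 0.40, adjusted p = 0.243) and Sox9 with 0.30 (SE 0.46, adjusted p = 0.784). Time in these livers cannot be told apart from the study code of the mice, since all 34-weeks livers carried a code of their own, and untreated livers labelled 34-weeks may come from mice killed earlier at an endpoint. In WT livers 0 of the 7 passed between the times, where 0.323% of genes were called, and in treated livers 0 of the 7 passed, where 32% of genes were called. The unadjusted counts were 0 and 0, and DESeq2 called 0 and 0, and 1 of the 7, Krt7, in untreated Lipa−/− livers.

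Whether the Lipa−/− difference from WT was itself larger at 34-weeks was tested with an interaction term. Of the 7 members 0 passed, where 0.0619% of genes were called, and DESeq2 called 0. Krt19, the member whose difference went from 0.17 to 2.17, had the only unadjusted p under 0.05 (log2 difference 2.00, SE 0.82, edgeR adjusted p = 0.43). The same term for treated against WT livers was passed by 0 of the 7, by 0 at an unadjusted p under 0.05 and by 0 in DESeq2, where 18.4% of genes were called. No test set the keratins against the other members.

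The 7 markers did not rank the livers of a group alike. Of the 3 Lipa−/− livers at 12-weeks, mouse 9 was the highest for 5 members and mouse 5 the lowest for 5. At 34-weeks mouse 4 was highest for 3 members, mouse 5 for 3 and mouse 6 for 1. Among the WT livers at 34-weeks mouse 1 was the lowest for all 7. Over the 18 livers, Pearson correlations of log2 CPM between the 21 pairs of members ranged from 0.419 to 0.92, values that largely carry the groups themselves. After the group means were subtracted they ranged from -0.404 to 0.658 with a median of 0.127, and 15 of the 21 were above 0. Epcam and Cldn4 had the highest of these (0.658), followed by Prom1 and Muc1 (0.529) and Krt19 and Epcam (0.461), and Sox9 had the lowest, with Cldn4 (-0.404) and Epcam (-0.401). Genes of 1 liver share that library's depth and scaling in these values, so they are descriptions.

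The genes outside the set whose log2 CPM followed a member most closely over the 18 livers were different for each member. Nearest were Col4a6 to Krt7 (r = 0.892), Slc7a1 to Krt19 (0.892), Rcn3 to Epcam (0.966), Grik3 to Sox9 (0.899), Cyp1b1 to Cldn4 (0.975), Slc25a24 to Prom1 (0.964) and Map1b to Muc1 (0.886). Next were Nmb and Kcnab1 for Krt7, Mpp2 and Dtx1 for Krt19, Scara3 and Igfbp7 for Epcam, Gata6 and Nfya for Sox9, Ntf5 and Scn7a for Cldn4, Ccdc80 and Elfn2 for Prom1 and Entpd7 and Wnt5a for Muc1.

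Other genes of the biliary epithelium moved with the 7, though not all of them. Of 18 further epithelial genes 9 rose and 1 fell in Lipa−/− livers at 12-weeks and 12 rose and 1 fell at 34-weeks, with median log2 fold changes of 1.06 and 3.41. Of all genes tested, 20.2% were called higher and 9.06% lower at 12-weeks, and 20.5% and 15.7% at 34-weeks. Without Lipa−/− mouse 9 the number called at 12-weeks went from 10 to 6. Spp1, which encodes osteopontin, a secreted protein made by cholangiocytes and also by macrophages, rose from a mean of 30.0 to 1062 CPM at 12-weeks (log2 fold change 5.14, SE 0.59, edgeR adjusted p = 4.35e-06). Ehf, an ETS transcription factor of epithelia, rose by a log2 fold change of 4.95 at 12-weeks and 5.59 at 34-weeks (SE 0.54 and 0.53, edgeR adjusted p = 2.49e-06 and 5.21e-07). Mmp7, matrilysin, which is secreted by injured biliary epithelium, had 1 read in each WT liver at 34-weeks and 458, 446 and 153 reads in Lipa−/− livers. Cdh1, the epithelial cadherin that hepatocytes share, and Cldn7 passed at 34-weeks (log2 fold changes 3.46 and 3.52) and not at 12-weeks (0.64 and 0.94). For Cdh1 the WT livers differed between the times, with means of 38.9 and 6.27 CPM, while Lipa−/− livers stood at 60.5 and 68.2 CPM, and it was the 1 gene of the list called in treated against WT livers at 34-weeks (log2 fold change 2.23, edgeR adjusted p = 0.0156). Lamb3 was the gene that fell (-1.36 and -1.61), while Krt8, Krt23, Cldn3, Atp1b1 and Vtcn1 passed at neither time. Genes of this list other than Mmp7 and Ehf were picked for mention after their values were seen. In treated against untreated Lipa−/− livers 5 of these 18 were lower at 12-weeks and 14 at 34-weeks, where 25.3% and 18.6% of all genes were called lower, so that the first count is near the share of all genes.

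**Figure D3:**
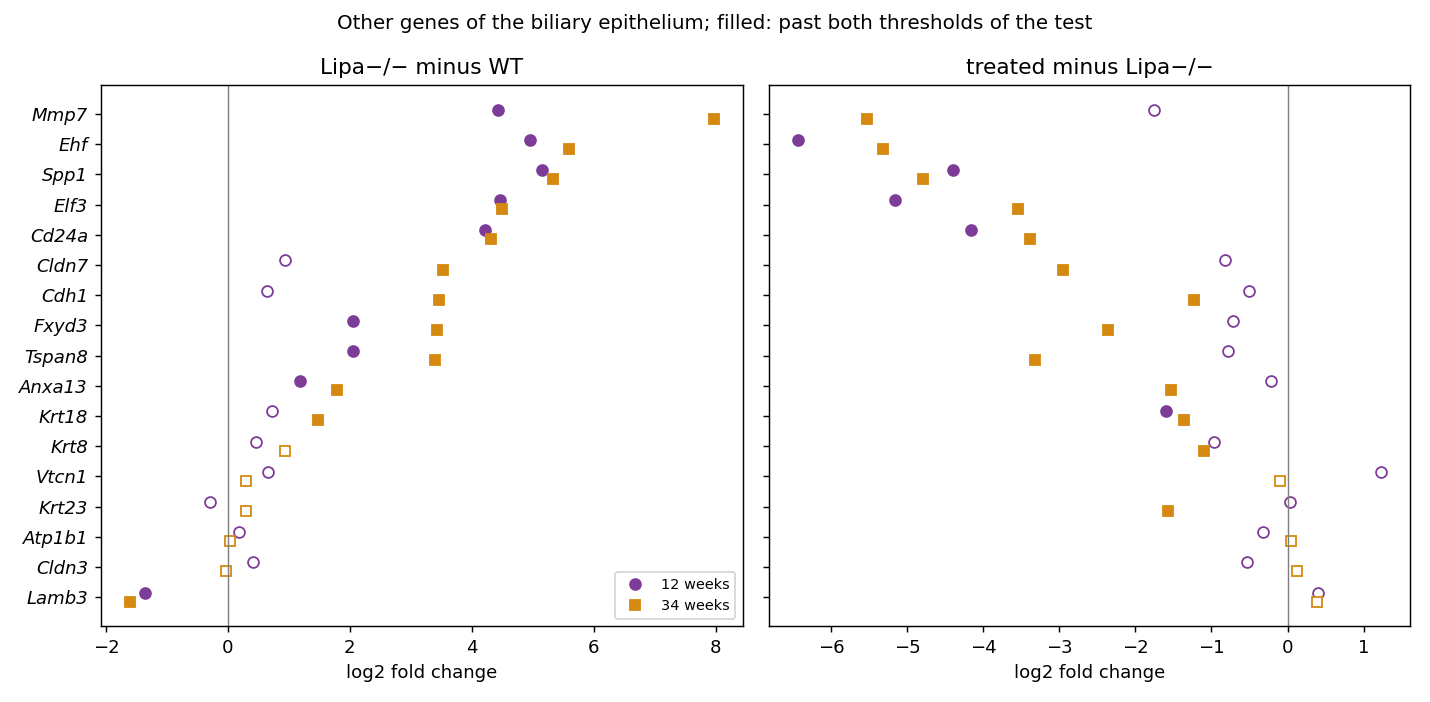
Fitted log2 fold changes (edgeR) of further genes of the biliary epithelium for Lipa−/− minus WT livers and for treated minus untreated Lipa−/− livers, with circles for 12-weeks and squares for 34-weeks, filled where both thresholds were passed. Mmp7 and Ehf lie at the high end at 34-weeks and Lamb3 at the low end, and more genes are filled in the treated comparison at 34-weeks than at 12-weeks.

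Transcription factors and transporters of the bile duct divided, in comparisons of Lipa−/− with WT livers. There 20.2% of all genes tested were called higher and 9.06% lower at 12-weeks, and 20.5% and 15.7% at 34-weeks. Of 8 biliary transcription factors 3 rose and 1 fell at 12-weeks and 5 rose at 34-weeks, or 3 without WT mouse 3 or Lipa−/− mouse 4. Sox4, a partner of Sox9 in duct formation, rose by a log2 fold change of 3.47 and 3.41 (SE 0.40 and 0.39, edgeR adjusted p = 4.68e-06 and 2.89e-06). Foxj1, the regulator of motile cilia, went from a mean of 0.253 to 1.06 CPM at 12-weeks and from 0.0458 to 2.94 CPM at 34-weeks. Onecut1 (HNF6), which acts in hepatocytes as well as ducts, fell by 4.37 on the log2 scale at 12-weeks (SE 0.72, edgeR adjusted p = 0.000147) and did not pass at 34-weeks (-1.39, adjusted p = 0.0896). Of 12 tested genes of bile duct transport and cilia 4 rose and 2 fell at 12-weeks and 5 rose and 1 fell at 34-weeks. Cftr, the chloride channel of bile secretion, went from a mean of 0.0847 to 1.88 CPM at 34-weeks, Bicc1, a ciliary RNA-binding protein, rose by log2 fold changes of 3.15 and 4.60 and Dcdc2a by 1.31 and 2.47, while Slc10a2, the bile acid transporter, fell (-1.30 and -1.75). Sctr and Ggt1, with 75 and 80 reads in all, were not tested.

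Signals that act on ductules in other settings were counted in the same way. Notch signalling drives biliary fate, and 2 of its 13 listed genes rose at 12-weeks (Hes1 and Hey1) and 3 at 34-weeks (Jag1, Jag2 and Hey1), shares near the 20.2% and 20.5% of all genes called higher. At 12-weeks 1 was called without WT mouse 3 or Lipa−/− mouse 5, and at 34-weeks 5 without WT mouse 2. Jag2, at a mean of 0.121 and 0.241 CPM in WT and Lipa−/− livers at 12-weeks, changed sign there when transcript length was taken into account and did not pass (0.97, edgeR adjusted p = 0.438). Of 12 genes of YAP and TEAD signalling 1 rose at 12-weeks, Axl, a smaller share than over all genes, and 7 rose at 34-weeks, among them the targets Ankrd1 (log2 fold change 4.09, SE 0.72, edgeR adjusted p = 0.000179) and Ccn2 (4.00, SE 0.63, edgeR adjusted p = 6.52e-05) and the factor Tead4 (2.89). At 12-weeks Ankrd1, Ccn2 and Tead4 did not pass (1.26, 1.21 and 1.26), and the count was 2 without WT mouse 2, WT mouse 3 or Lipa−/− mouse 5. Of 14 tested ligands, receptors and related genes that act on ductules 9 rose at 12-weeks and 11 at 34-weeks, and 0 fell. Ltb, lymphotoxin beta, rose by 4.68 and 4.12, Cxcl5, a neutrophil chemokine, passed only at 34-weeks of these 2 tests (means 0.0261 and 3.81 CPM in WT and Lipa−/− livers), and Fgf7, a mesenchymal growth factor for progenitor cells, had no read in any WT liver and a mean of 0.622 and 1.46 CPM in Lipa−/− livers. In the interaction test of Lipa−/− against WT between the times, 0 of the 13 Notch, 12 YAP and TEAD and 14 ductular genes passed in edgeR, with unadjusted p = 0.00294 for Ccn2, 0.0104 for Ankrd1 and 0.00255 for Cxcl5. In treated against untreated livers 6 of these 14 were lower at 12-weeks and 11 at 34-weeks, where 25.3% and 18.6% of all genes were called lower. Il6 and Itgb6, with 45 and 84 reads, were not tested.

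Markers of other cells moved with the 7 in the same livers. In Lipa−/− against WT livers 0 of 9 hepatocyte genes rose and 4 fell at 12-weeks and 7 fell at 34-weeks. Of all genes tested, 20.2% were called higher and 9.06% lower at 12-weeks, and 20.5% and 15.7% at 34-weeks. Their summed CPM ran from 66800 to 84000 in WT and from 40400 to 58100 in Lipa−/− livers at 12-weeks, and from 64800 to 81400 and from 23300 to 49100 at 34-weeks. Cyp2e1, the pericentral cytochrome, fell by 1.36 and by 3.18 on the log2 scale, Ttr by 1.02 and by 1.97, and Asgr1 fell by 2.11 at 34-weeks. Of 10 macrophage genes 8 rose and 1 fell at 12-weeks, and 6 rose and 2 fell at 34-weeks. Their summed CPM lay between 122 and 320 in WT and between 4250 and 9030 in Lipa−/− livers at 12-weeks, and between 229 and 498 and between 4330 and 5980 at 34-weeks. Gpnmb, a lysosomal glycoprotein of lipid-laden macrophages, had the largest difference (13.11 and 12.31 on the log2 scale), followed by Trem2 (8.65 and 7.85) and Cd68 (6.25 and 5.37). Of 8 genes of stellate cells and fibroblasts 6 rose at both times, while 1 fell at 12-weeks and 2 at 34-weeks, with Col1a1 at 5.42 and 6.28, Col1a2 at 5.11 and 5.69 and Lum at 3.94 and 4.34. In treated livers at 12-weeks the macrophage sum was 1030 to 2900 CPM and the stellate sum 309 to 692 CPM, where WT livers had 102 to 197 for the second, and 6 of 10 macrophage and 4 of 8 stellate genes were called higher than in WT livers. Of all genes tested, 13.6% were called higher in treated against WT livers at 12-weeks. In treated livers at 34-weeks the macrophage sum was 354 to 873 CPM and the stellate sum 218 to 246 CPM, against 187 to 207 in WT livers for the second. There 2 of 10 macrophage and 0 of 8 stellate genes were called higher than in WT livers, where 0.131% of all genes tested were. Gpnmb had a mean of 56.9 CPM in treated and 0.432 CPM in WT livers at 34-weeks. All 8 proliferation genes rose at both times, with Ccnb1 at 4.76 and 3.03, Birc5 at 4.51 and 2.49 and Plk1 at 4.42 and 2.83. Leaving out single livers took this count to as low as 5 at 12-weeks, without Lipa−/− mouse 9, and to as low as 3 at 34-weeks, where leaving out any WT liver or Lipa−/− mouse 6 lowered it. Endothelial genes divided, with 2 higher and 3 lower of 8 at each time (Lyve1 1.19 and 2.07, Clec4g -2.17 and -2.70, Kdr -2.09 and -1.38). Their count of higher genes was near the share over all genes.

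**Figure D4:**
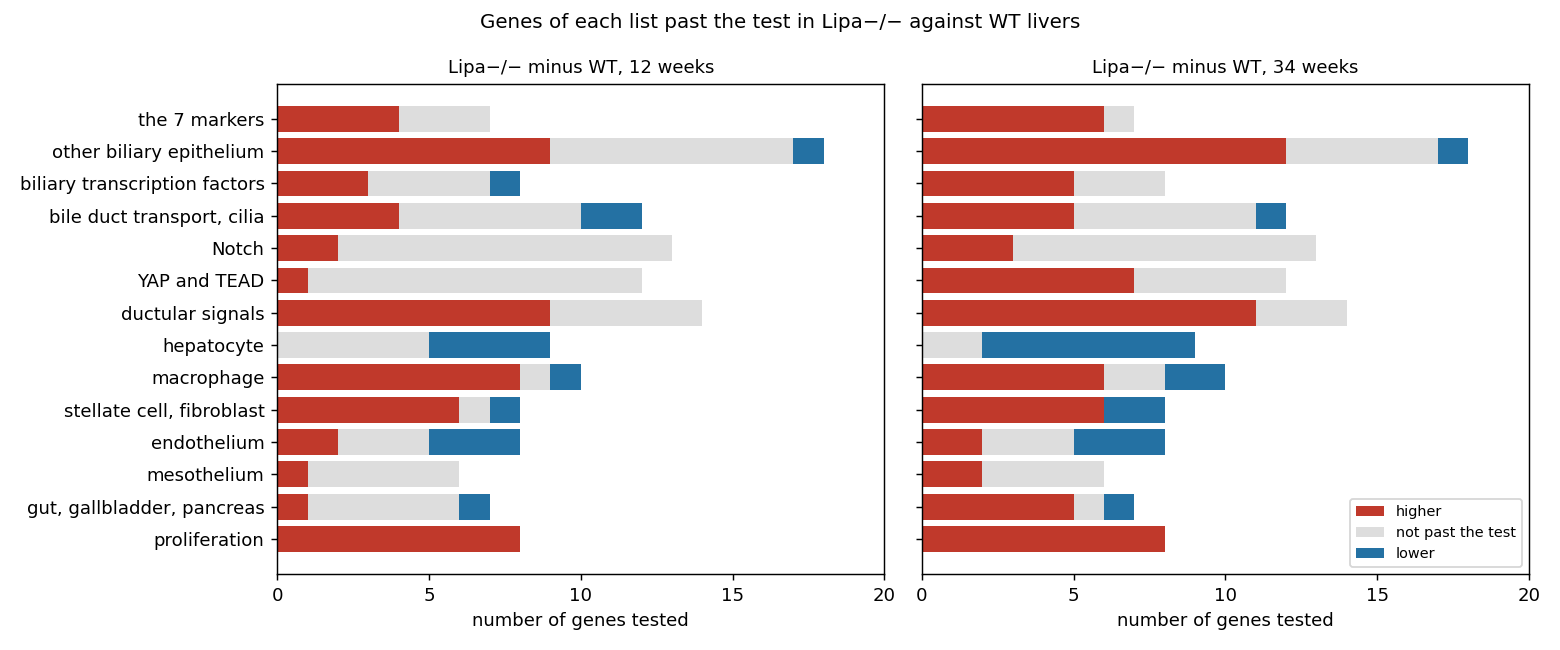
Number of genes in each list that passed the test in Lipa−/− against WT livers at 12-weeks and 34-weeks, with red for higher, grey for not past the test and blue for lower, and the bar length for the genes tested. The 7 markers had 4 and 6 higher, the other biliary epithelium 9 and 12 of 18, proliferation 8 of 8 at both times, and hepatocyte genes 4 and 7 lower of 9. Of all genes tested, 20.2% were called higher and 9.06% lower at 12-weeks, and 20.5% and 15.7% at 34-weeks.

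Epithelia outside the bile duct also carry some of these 7 markers, so genes of mesothelium, gut, gallbladder and pancreas were examined. Of 6 mesothelial genes tested 1 rose at 12-weeks (Wt1, log2 fold change 4.63) and 2 at 34-weeks (Wt1 3.50 and Msln 1.80), with 1 to 3 called when single livers were left out (every WT liver and Lipa−/− mice 4 and 5 at 34-weeks, and WT mouse 3 at 12-weeks, moved it). The summed CPM of Lipa−/− livers at 34-weeks ran from 5.15 to 28.4 against 3.78 to 5.29 in WT livers. Of 7 gut, gallbladder and pancreas genes 1 rose and 1 fell at 12-weeks (1 called without WT mouse 1 or 2) and 5 rose and 1 fell at 34-weeks, and the sum, carried by Fabp2, which fell (-2.50 and -4.82), ran from 15.8 to 31.3 CPM in Lipa−/− livers against 97 to 115 in WT livers at 12-weeks and from 12.5 to 28.7 against 129 to 315 at 34-weeks. Of all genes tested, 20.2% were called higher and 9.06% lower at 12-weeks, and 20.5% and 15.7% at 34-weeks. The counts of higher genes at 12-weeks in these lists were near that share. The pancreatic acinar genes Pnlip and Cpa1 stood at 5.02 and 3.52 CPM in Lipa−/− mouse 5 at 34-weeks, at 0.284 and 0.284 in mouse 4 and at 1.10 and 0.698 in mouse 6. The same mouse 5 was the highest of its group for 3 members (Krt7 5.02, Krt19 5.33 and Sox9 52.0 CPM). It was the lowest for 2, Cldn4 and Muc1. Its Msln, at 8.89 CPM, was also the highest of its group. Without mouse 5 the members called in Lipa−/− against WT livers at 34-weeks were again 6 of 7, and the count of this list was 2. The intestinal factor Cdx2 had 0 reads in all 18 livers, the gallbladder and airway mucin Muc5b 1 and the squamous keratin Krt5 4. The part of these other cells in the members' values was not tested.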

How the data were processed

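Estimated counts and TPM per gene were deposited by the authors for each of the 18 livers, made with Salmon from poly(A) RNA libraries against Ensembl's GRCm39 cDNA, with gene sums from tximport. The estimated counts are not normalized, and the deposited TPM values are scaled by transcript length and to a fixed sum per library. ERCC spike-ins are named in the protocol and no ERCC row was found. The submitters' processing notes name DESeq2 1.40.1 and R 4.3.0. The authors' comparison table holds fold changes and p-values and was not used, and 0 columns lacked a sample.

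Estimated counts were rounded, genes with 100 or fewer reads over all livers were left out, and 14533 genes were fitted in edgeR 4.0.16 (R 4.3.3) with TMM factors and 6 group means by the quasi-likelihood test. Calls needed a log2 fold change over 1 in size and a Benjamini-Hochberg adjusted p under 0.05 over all genes. Alternatives used limma 3.58.1 on log2(TPM + 0.1) or log2(TPM + 1), DESeq2 1.42.0, other scalings, transcript-length offsets and each liver left out. Scripts were tested on simulated data. Some listed items count in the totals of their lists and are not reported here by name, nor is 1 of the searched motifs. All members were named, and from each other list the 3 that passed with the greatest change in size between Lipa−/− and WT livers at either time, fewer where fewer were called, and for each member the 3 genes nearest by Pearson r over the 18 livers. Other genes named were chosen after their values were seen. The members and lists were chosen with earlier results of these data known. Labels do not say more of the replicates than that they are separate mice, and p-values measure the spread between these mice.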

Additional observations from a re-analysis of the deposited data

How the results depend on the processing

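The number of members called ranged over the alternatives from 3 to 4 for Lipa−/− against WT livers at 12-weeks, from 6 to 7 at 34-weeks, from 4 to 6 for treated against untreated livers at 12-weeks and from 5 to 7 at 34-weeks, and was 0 in treated against WT livers at both times. Without TMM factors the median of all genes moved to 0.485 and 0.602 in Lipa−/− against WT livers and to -1.05 and -0.51 in treated against untreated livers, and the members' medians were 2.15, 3.04, -2.32 and -3.21. The share of higher genes among those called then went from 69.1% to 87.2%, from 56.6% to 81.8%, from 39% to 8.92% and from 40.8% to 18.5%. It went from 53.1% to 24.4% and from 59.4% to 70.8% in treated against WT livers, from 54.7% to 87.8% between times in treated livers, from 46.6% to 81.3% in the interaction for treated livers and from 6.94% to 18.2% between times in Lipa−/− livers, or 25% with upper quartile factors. Depth limits Cldn4, Krt7 and Muc1 most, which had few reads outside the Lipa−/− livers at 34-weeks. The cause was not tested for any change given here.

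Between the times in Lipa−/− livers 1 member was called with DESeq2, 1 with limma on log2(TPM + 0.1) and 3 on log2(TPM + 1), and 0 to 1 with single livers left out. In treated livers 1 was called without TMM factors and 1 with each limma fit. Krt19 in treated against untreated livers at 12-weeks passed without TMM factors (-2.18) and in limma (-2.02 and -1), and Muc1 at 34-weeks passed in Lipa−/− against WT livers without TMM factors (2.31), with only the groups compared (1.73) and in limma (2.76 and 1.70). Cldn4 at 12-weeks was under the fold threshold on log2(TPM + 1), at 0.82 against WT and -0.85 in treated against untreated livers.

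Signs that turned belonged to differences that had not passed. Krt7 in treated against untreated livers at 12-weeks was -0.78 without TMM factors and -0.62 and -0.18 in limma, and -0.32 to 0.78 with single livers left out. In treated against WT livers Krt7 at 34-weeks was 0.01 and 0.02 in limma, Epcam at 12-weeks was -0.15 without TMM factors and -0.39 and -0.17 in limma, Prom1 at 34-weeks was 0 on log2(TPM + 1) and Muc1 at 34-weeks was -0.03 on log2(TPM + 0.1). With single livers left out these comparisons ranged from -0.17 to 0.59 for Epcam at 12-weeks, from -2.20 to 1.55 for Muc1 at 12-weeks, and at 34-weeks from -0.11 to 0.62 for Krt19, from -0.42 to 0.06 for Prom1 and from -0.36 to 0.73 for Muc1. Lipa−/− against WT livers at 12-weeks ranged from -0.26 to 0.54 for Krt19 and from 0 to 2.16 for Cpa1, and Sox9 between the times in Lipa−/− livers from -0.06 to 0.95. Jag2 at 12-weeks was -0.89 and -0.85 with length offsets in edgeR and DESeq2 and -0.30 and -0.04 in limma.

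Of the list counts in Lipa−/− against WT livers, without TMM factors Notch genes called were 4 at 12-weeks and 8 at 34-weeks, YAP and TEAD genes 3 at 12-weeks and hepatocyte genes 1 and 3. With upper quartile factors Notch genes at 34-weeks were 5. On log2(TPM + 0.1) Notch genes at 34-weeks were 7, YAP and TEAD genes at 12-weeks 4, hepatocyte genes 1 and 3, endothelial genes at 34-weeks 3 and mesothelial genes at 12-weeks 2. On log2(TPM + 1) biliary transcription factors at 34-weeks were 3, transport and cilia genes at 12-weeks 2, Notch genes at 12-weeks 1, YAP and TEAD genes at 12-weeks 2, hepatocyte genes 1 and 3, endothelial genes at 34-weeks 3 and the gut, gallbladder and pancreas list at 12-weeks 1. With DESeq2 YAP and TEAD genes and mesothelial genes at 12-weeks were 2 each, and with length offsets in edgeR mesothelial genes were 2 at 12-weeks and 1 at 34-weeks and proliferation genes at 34-weeks 5. In treated against untreated livers at 12-weeks, biliary epithelium genes were 14 without TMM factors and 15 and 13 in limma, and ductular signals 11 without TMM factors and 11 on log2(TPM + 0.1).

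With single livers left out, the counts called ranged at 12-weeks from 6 to 10 for biliary epithelium, from 1 to 2 for Notch, YAP and TEAD and the gut, gallbladder and pancreas list, from 1 to 3 for mesothelium and from 5 to 8 for proliferation. At 34-weeks they ranged from 3 to 5 for biliary transcription factors and for Notch, from 1 to 3 for mesothelium, from 2 to 6 for the gut, gallbladder and pancreas list and from 3 to 8 for proliferation.

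Mouse numbers recur between times in WT livers (r of deviations 0.076, -0.24 and 0.46 for the same number), in treated livers (-0.077 and -0.253) and for 1 untreated Lipa−/− number (0.212). Livers of the same number come from separate mice. Whether these mice share more than the number cannot be told from these values. With the mouse number as a replicate block 0 members were called between the times in WT and 0 in treated livers, the counts without the block.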
